A study of Mus musculus with 4 samples.

Results

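The genes described here carry the signals that build and fill lymphoid tissue. They are the homeostatic chemokines Ccl19, Ccl21a and Cxcl13, the inducible chemokines Ccl20, Ccl17 and Ccl22, the receptors Ccr7 and Ccr6, and the lymphotoxins Lta and Ltb. They were chosen by name, 10 genes in all. A probe was taken for a gene where the RefSeq accession of the probe's target belonged to it, and the probe with the highest mean log2 processed signal was kept. That gave a probe for 9 of the 10, out of 20832 named genes with a probe. Ccl21a was matched by no probe in this way and is not analysed here. Of the 9, 7 were well above background on all 4 arrays and were tested among 15560 genes. Ccl20 and Ccl22 were well above background on none.

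Whole colons of C57BL/6J mice aged 14 weeks were used, either wild-type (WT) or STAP-2-/-, lacking the adaptor protein STAP-2. Every mouse, controls included, had received 1.75% dextran sulfate sodium (DSS) in the drinking water, which injures the colonic epithelium and brings on acute colitis, and there were no untreated colons. The stated exposure is 7 days in the sample descriptions and 3 days in the treatment protocol. Each of the 4 one-colour Agilent arrays measured RNA pooled from 3 mice, with 2 pools per genotype that the titles number 1 and 2 and call biological replicates. The labels do not say whether pools of equal number shared anything else, nor how the knockout was made, and p-values measure only the spread between these pools.

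In lymphoid tissue, stromal cells and vessels lay down chemokines that sort arriving lymphocytes. CCL19 and CCL21 act through the receptor CCR7 and draw naive T cells and mature dendritic cells, while CXCL13 acts through CXCR5 and draws B cells into follicles. Lymphotoxin alpha and beta, made by lymphocytes and by lymphoid tissue inducer cells, bind the lymphotoxin beta receptor on stroma and switch these chemokines on through noncanonical NF-kB signalling. The colon holds such tissue as colonic patches and isolated lymphoid follicles. There the epithelium over a follicle makes CCL20, whose receptor CCR6 is carried by B cells, innate lymphoid cells and dendritic cells. CCL17 and CCL22 are products of dendritic cells and macrophages that act through CCR4.

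Since lymphotoxin signals through NF-kB, the promoters that hold a match to the NF-kB consensus are shown. Sequences are from RefSeq on GRCm38.p6, the 250 bases before the annotated start, 5′ to 3′ on the gene's own strand. Capitals mark the match, on either strand. The upstream window of Ltb, the start of Ccr6 that has the match, and Ccl20 are as follows.
Ltb (chr17:35194257-35194506, plus strand): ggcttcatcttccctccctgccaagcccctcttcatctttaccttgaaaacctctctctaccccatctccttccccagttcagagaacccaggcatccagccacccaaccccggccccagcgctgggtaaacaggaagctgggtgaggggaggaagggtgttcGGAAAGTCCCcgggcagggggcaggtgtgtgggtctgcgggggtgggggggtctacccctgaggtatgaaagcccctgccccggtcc
Ccr6 (chr17:8242276-8242525, plus strand): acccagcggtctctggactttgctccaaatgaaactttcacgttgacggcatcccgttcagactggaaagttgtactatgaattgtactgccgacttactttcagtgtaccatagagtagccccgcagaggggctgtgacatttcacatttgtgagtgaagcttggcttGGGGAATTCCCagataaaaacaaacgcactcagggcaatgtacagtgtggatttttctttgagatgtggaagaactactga
Ccl20 (chr1:83116516-83116765, plus strand): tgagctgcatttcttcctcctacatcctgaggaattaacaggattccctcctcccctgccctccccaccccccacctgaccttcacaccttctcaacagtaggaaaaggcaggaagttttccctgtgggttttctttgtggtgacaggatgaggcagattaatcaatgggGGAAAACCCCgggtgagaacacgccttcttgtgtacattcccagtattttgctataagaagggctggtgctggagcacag
In Ccr6 the capitals cover 2 overlapping matches, GGGGAATTCC and GGGAATTCCC. Of 32851 upstream windows of this length in the table, 7.25% held the NF-kB consensus on at least 1 strand, against 3 of the 10 windows of these genes (Ccr6 has 2 windows, and Ccr7 was not matched). The consensus bound by STAT factors, TTCNNNGAA on either strand, occurred in 7.02% of all windows and in 4 of the 10. These were Ccl17 with TTCTTTGAA, the first start of Ccr6 with TTCAAAGAA and TTCCAAGAA, Lta with TTCAGGGAA and TTCCCAGAA, and Ltb with TTCAGAGAA. The octamer ATGCAAAT, on either strand, was found in 1.6% of all windows and in 1 window of Ccr6, and TATAAA, on the gene's strand, in 7.59% of all windows and in those of Cxcl13 and Lta. These are matches of letters only. Where there is no match, as in Ccl19 and Ccl22 for the motifs searched, that holds for this window alone.

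The 75th percentile of processed signal ran from 2134 to 2348 over the arrays, and between 68.4% and 70.5% of spots were well above background. Values below are log2 processed signal minus that percentile on the same array, so 0 is the level of the 75th percentile, and values of different probes are not compared. Stap2 was at 2.92 on WT 1 and 2.98 on WT 2, and at -6.63 and -7.72 on the STAP-2-/- arrays, where its signal did not stand clear of background. The place of its probe relative to the deletion was not analysed here. Of 9 colon epithelium markers with a probe, all were well above background on all 4 arrays. Across 15549 tested genes with a value on every array, the pool 2 minus pool 1 differences in WT and in STAP-2-/- colons correlated by 0.596 as a description. The SD of log2 differences was 0.420 between both WT arrays and 0.655 between both STAP-2-/- arrays.

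Every one of the 7 measured genes was highest in the second WT pool. Across the genes with a value on every array, 19.4% were highest there, and all 7 remained so under each scaling, background and probe choice tried. For 5 of them (Ccl19, Cxcl13, Ccl17, Ccr7 and Ccr6) the second STAP-2-/- pool was also the lowest array, as it was for 32.8% of genes, and 3.98% of genes combined both. For Ccl19 this rested on a log2 difference of -0.028 between the STAP-2-/- arrays. With quantile scaling, median scaling or normexp background correction the first STAP-2-/- pool was the lowest for Ccl19. The lymphotoxins were arranged differently, being higher in the second pool of both genotypes. No gene of the set passed the limma test between genotypes or between pool numbers at an adjusted p of 0.05. Between genotypes the adjusted p rounded to 1 for each of the 7 in the fit without a block. Stap2, with a genotype difference of -10.1, did not pass in that fit either (limma adjusted p 0.314). A gene that did not pass is thus not shown to be unchanged. With the pool number as a block the lowest limma adjusted p of the 7 was 0.699 (Lta).

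**Figure D1:**
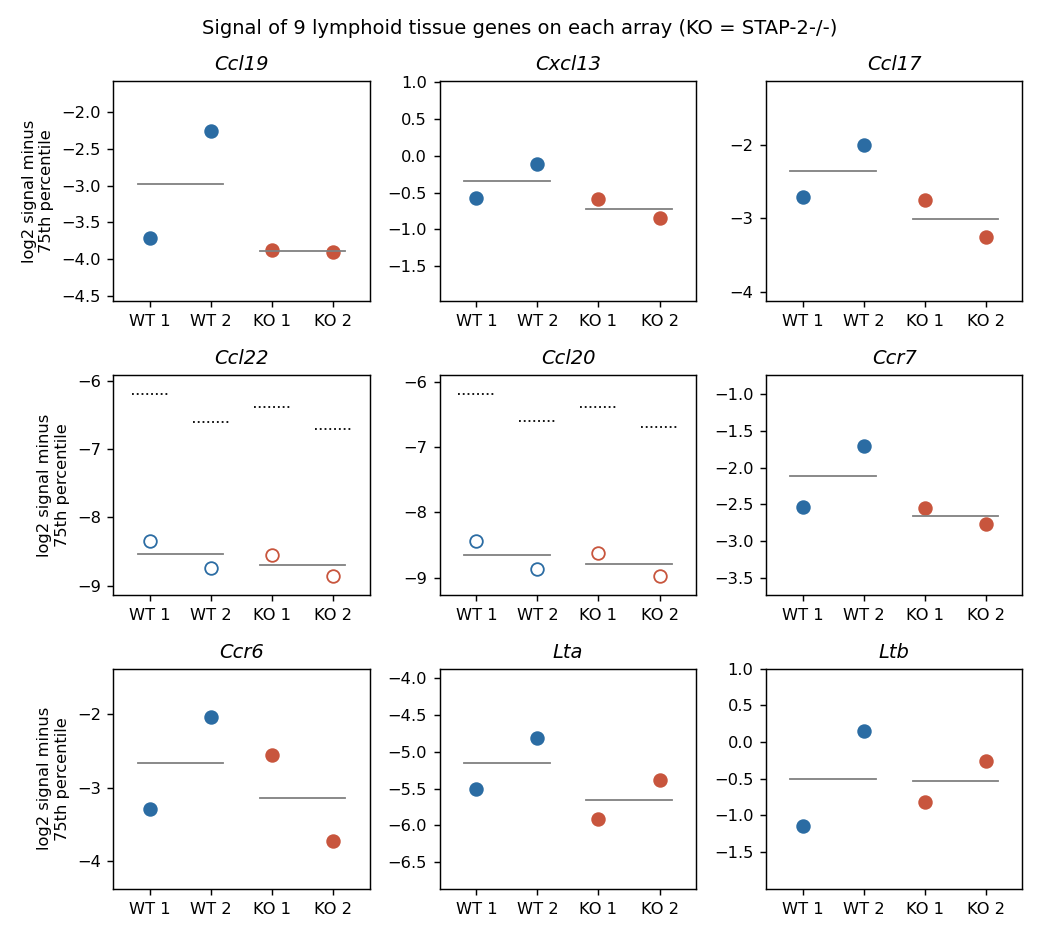
Log2 processed signal minus the array's 75th percentile (vertical axis, each panel with its own range, about 3 log2 units high) for 9 genes on the 4 arrays. Points are single arrays of 1 pool each, blue for WT and red for STAP-2-/- (KO), grey lines are genotype means, open points are not well above background, and dotted lines give the lowest signal well above background on that array. In the 7 panels with filled points WT 2 is the highest point.

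Among the homeostatic chemokines, Ccl19 (chromosome 4), made by the reticular stroma of T cell zones and by mature dendritic cells, stood apart on 1 array. Its log2 value was -3.71 on WT 1, -2.25 on WT 2, -3.87 on STAP-2-/- 1 and -3.90 on STAP-2-/- 2. WT 2 was 2.75-fold above WT 1, while both STAP-2-/- arrays and WT 1 lay within a narrow band. The genotypes did not overlap, but the gap between WT 1 and the nearer STAP-2-/- array was only 0.16. The log2 difference, STAP-2-/- minus WT, was -0.91 (SE 0.54, n = 2 per genotype). Without WT 2 it was -0.18, and without WT 1 -1.63.

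Ccl19 had 3 probes, and WT 2 was highest on each. The other two read -3.90 and -4.12 on WT 1, -3.15 and -3.52 on WT 2, -3.97 and -3.92 on STAP-2-/- 1, and -4.16 and -4.49 on STAP-2-/- 2. They put WT 2 above WT 1 by less than the kept probe did. On the probe that read -4.12 on WT 1, STAP-2-/- 1 was higher at -3.92, so the genotypes overlapped. Its order from high to low was WT 2, STAP-2-/- 1, WT 1 and STAP-2-/- 2. The size of the Ccl19 difference, the lack of overlap and the array order thus depend on the probe, while the highest array does not. With the mean of the 3 probes the genotype difference was -0.61, and STAP-2-/- minus WT within pool 1 was only -0.011.

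Cxcl13 (chromosome 5), the follicular chemokine, was -0.58 on WT 1, -0.12 on WT 2, -0.59 on STAP-2-/- 1 and -0.85 on STAP-2-/- 2. Both arrays numbered 1 were level, and WT 2 and STAP-2-/- 2 lay above and below them. The genotype difference was -0.37 (SE 0.23). The genotypes did not overlap, by a margin of 0.015, which is smaller than the median SD between repeated spots of an array, 0.049 to 0.052. With quantile scaling that margin turned to 0.0032 the other way, and with normexp background correction to 0.093. The difference was -0.14 without WT 2, -0.25 without STAP-2-/- 2 and -0.60 without WT 1.

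Cxcr5, the receptor for CXCL13 on follicular B and T cells, spread more widely than its ligand. It read -4.08 on WT 1, -3.03 on WT 2, -4.05 on STAP-2-/- 1 and -5.09 on STAP-2-/- 2. As for Cxcl13, the arrays numbered 1 were level, with WT 2 above them and STAP-2-/- 2 below.

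Of the dendritic cell chemokines, Ccl17 (chromosome 8) was measured well and Ccl22 was not. Ccl17 was -2.72 on WT 1, -2.00 on WT 2, -2.76 on STAP-2-/- 1 and -3.26 on STAP-2-/- 2. The arrays numbered 1 were again level and those numbered 2 lay 2.40-fold apart, WT above STAP-2-/-. The genotype difference was -0.65 (SE 0.34), and the genotypes did not overlap, by 0.041, a gap within the SD between repeated spots. It was -0.29 without WT 2, -0.40 without STAP-2-/- 2 and -1.01 without WT 1.

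Ccl22, which lies near Ccl17 on chromosome 8 with Cx3cl1 between them, read from -8.86 to -8.34 over the 4 arrays. Ccl20, the chemokine of follicle-associated and inflamed epithelium, read from -8.97 to -8.43. The lowest signal that counted as well above background was -6.70 to -6.19 depending on the array, so both probes were below it everywhere and no fold is given. Ccr4, the receptor for CCL17 and CCL22, was well above background on 1 array and was not tested.

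The receptors differed from each other in the order of the arrays. Ccr7 (chromosome 11), carried by naive and central memory T cells, B cells and mature dendritic cells, was -2.53 on WT 1, -1.70 on WT 2, -2.55 on STAP-2-/- 1 and -2.77 on STAP-2-/- 2. The arrays numbered 1 differed by 0.018, less than the SD between repeated spots. Those numbered 2 were 2.10-fold apart. The genotype difference was -0.54 (SE 0.33), and it was -0.13 without WT 2 and -0.96 without WT 1.

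Ccr6 (chromosome 17) was -3.29 on WT 1, -2.04 on WT 2, -2.56 on STAP-2-/- 1 and -3.72 on STAP-2-/- 2. The genotypes overlapped, since STAP-2-/- 1 was above WT 1 and STAP-2-/- 2 below both WT arrays. STAP-2-/- minus WT was 0.73 in pool 1 and -1.68 in pool 2, where WT 2 lay 3.21-fold above. The genotype difference over all arrays was -0.48 (SE 0.62), and it was 0.15 without WT 2, 0.10 without STAP-2-/- 2, -1.06 without STAP-2-/- 1 and -1.10 without WT 1. Of the 7 genes this one had the widest range over the arrays.

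Lta and Ltb lie on chromosome 17 with Tnf between them. Lta, the secreted lymphotoxin, was -5.50 on WT 1, -4.81 on WT 2, -5.92 on STAP-2-/- 1 and -5.38 on STAP-2-/- 2. Each value is the mean of 10 spots of 1 probe, with an SD between spots of 0.20 to 0.24. Both arrays numbered 2 were above both numbered 1, while the genotypes overlapped. The genotype difference was -0.50 (SE 0.34), or -0.15 without WT 2, and pool 2 minus pool 1 was 0.61 (SE 0.26), limma adjusted p 0.230. The genotype difference was -0.23 without STAP-2-/- 1, -0.76 without STAP-2-/- 2 and -0.84 without WT 1. The pool difference was 0.33 without WT 2 and 0.40 without STAP-2-/- 1. With normexp background correction the genotype and pool differences were -0.20 and 0.32.

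Ltb, the membrane subunit that joins lymphotoxin alpha, was -1.15 on WT 1, 0.15 on WT 2, -0.82 on STAP-2-/- 1 and -0.26 on STAP-2-/- 2. Both arrays numbered 2 were above both numbered 1, by 1.29 in WT and 0.56 in STAP-2-/- colons. Pool 2 minus pool 1 was 0.93 (SE 0.20), with an unadjusted p of 0.00811 and a limma adjusted p of 0.125. The genotype difference was -0.037 (SE 0.52). It was 0.61 without WT 2, 0.24 without STAP-2-/- 1, -0.32 without STAP-2-/- 2 and -0.68 without WT 1.

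Tnf, the gene between them, was -1.65 on WT 1, -2.06 on WT 2, -4.21 on STAP-2-/- 1 and -2.19 on STAP-2-/- 2. STAP-2-/- 1 was lowest for Tnf by a wide margin, and it was the lowest array for Lta too. WT 1 was highest for Tnf, which held for neither lymphotoxin.

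Between genotypes, all 7 genes had a lower mean in STAP-2-/- colons, where 51.7% of genes tested did, with differences from -0.91 to -0.037 and a median of -0.50 against -0.0068 over all genes tested. Of the 7, 4 were lower with no overlap (Ccl19, Cxcl13, Ccl17 and Ccr7), against 13.3% of genes. For Ccl19 this holds for the kept probe, since the genotypes overlapped on another of its probes. With quantile scaling or normexp background correction Cxcl13 overlapped and 3 were left. The limma test called 0 of the 7 and 0 of 15559 genes with an estimate (0% in each direction), and 326 genes (2.1%) had an unadjusted p under 0.05, none of them of the 7. With the pool number as a block 1041 genes had an unadjusted p under 0.05 and again 0 passed.

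Within pool 1 and within pool 2 the genotypes compared differently, with 1 array on each side and so no replicate check. Within pool 2 all 7 genes were lower in STAP-2-/- colons, 4 of them (Ccl19, Ccl17, Ccr7 and Ccr6) by at least 2-fold, where 51.8% of genes were lower and 1.63% by at least 2-fold. Within pool 1, 5 of 7 were lower, none by 2-fold, where 50.4% of genes were lower and 1.06% by 2-fold. The median difference of the 7 was -1.07 within pool 2 and -0.018 within pool 1.

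**Figure D2:**
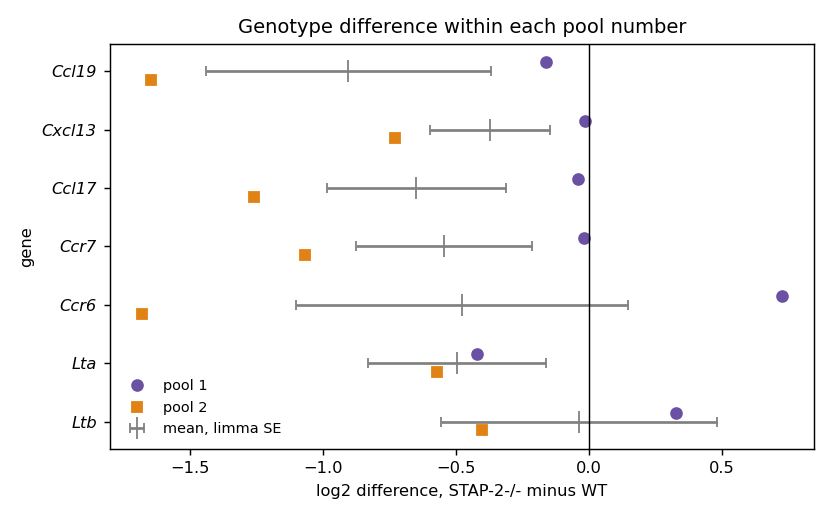
Log2 difference, STAP-2-/- minus WT, for the 7 measured genes within pool 1 (purple circles) and within pool 2 (orange squares), with the mean of both and its limma SE in grey (n = 2 arrays per genotype). The pool 2 squares lie between -1.68 and -0.40, and the pool 1 circles of Cxcl13, Ccl17 and Ccr7 lie within 0.05 of 0.

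The comparison of pool numbers uses the same 4 arrays as that of genotypes. All 7 genes were higher in pool 2 within WT, from 0.46 (Cxcl13) to 1.46 (Ccl19). Of these, 3 (Ccl19, Ccr6 and Ltb) were at least 2-fold higher there, against 1.94% of genes. Only Lta and Ltb of the 7 were also higher in pool 2 within STAP-2-/- colons. By their means over both genotypes all 7 were higher in pool 2, as 44.8% of genes were. The remaining 5 were higher in pool 2 within WT and lower in pool 2 within STAP-2-/- colons, a combination that 9.76% of genes had. Ccl19 was lower there by a log2 difference of only -0.028, which turned positive with quantile scaling, median scaling or normexp. Lta and Ltb were higher in pool 2 with no overlap, as 26.4% of genes were. Of 15560 genes, 0 passed at an adjusted p of 0.05 (0% in each direction) and 3943 (25.3%) had an unadjusted p under 0.05, Ltb among them.

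**Figure D3:**
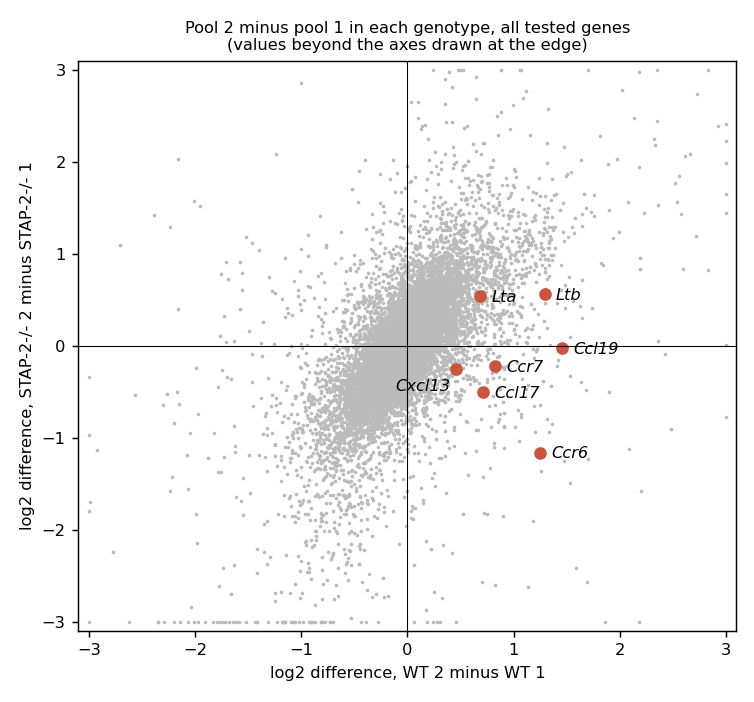
Pool 2 minus pool 1 on the log2 scale in WT (horizontal) and in STAP-2-/- colons (vertical), with grey points for all tested genes and red points for the 7 lymphoid tissue genes. The grey cloud runs along the rising diagonal, Lta and Ltb lie at the upper right, and Ccr6, at 1.25 and -1.16, lies at the lower right.

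Genes of the lymphotoxin receptor pathway varied unequally over the arrays. Ltbr, the receptor on stroma, read from 2.74 to 2.80, and Map3k14, the kinase that starts noncanonical NF-kB signalling, from -0.95 to -0.88. Tnfrsf13c, the BAFF receptor of B cells, read from -5.59 to -2.76, a wider range than that of Lta or Ltb, and Tnf and Tnfsf14 of the same list also spread more than the lymphotoxins. Ltbr, Map3k14 and Tnfrsf13c were chosen after their values were seen. Of 20 genes in the receptor and noncanonical NF-kB list, 18 were tested and 0 passed in either comparison. In STAP-2-/- colons 12 were lower and 6 higher, with a median difference of -0.091, and WT 2 was the highest array for 7 of 18. Tnfsf14, the lymphotoxin-related ligand LIGHT, had the smallest p between pools. It read -5.77 on WT 1, -4.51 on WT 2, -5.42 on STAP-2-/- 1 and -4.35 on STAP-2-/- 2, so it was higher in pool 2 of both genotypes, as Lta and Ltb were (limma adjusted p 0.0909). Its receptor gene Tnfrsf14 ran the other way, from -3.63 and -3.49 in pool 1 to -4.15 and -4.19 in pool 2, WT first (limma adjusted p 0.110).

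In the list of partner and scavenging receptors and related chemokines, 8 of 12 genes were tested and 0 passed. Ackr1, a chemokine-binding receptor of venules, was -1.86 and -1.97 in pool 1 and -1.11 and -1.29 in pool 2, WT first (limma adjusted p 0.104). Of 12 lymphoid tissue inducer and innate lymphoid cell genes, 10 were tested and 0 passed, with Il23r and Ncr1 well above background on no array. Il22, a cytokine of these cells, was -5.31 on WT 1, -3.22 on WT 2, -5.38 on STAP-2-/- 1 and -6.50 on STAP-2-/- 2, which places the arrays in the order seen for Ccl19. Nfil3, a factor needed for innate lymphoid cells and active in other cells, was -1.53 and -2.22 in pool 1 and 0.36 and -0.23 in pool 2, WT first (limma adjusted p 0.104).

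Most B cell and follicle markers were highest on the same array as these genes. Of 11 B cell genes tested, 9 were highest on WT 2 (19.4% of all genes were) and 8 lowest on STAP-2-/- 2 (32.8%). Of these 11, 0 passed the limma test in either comparison. Their summed linear signal, in units of the 75th percentile, was 1.78 and 3.12 in WT and 2.32 and 1.36 in STAP-2-/- colons, pool 1 first. Over the 7 lymphoid tissue genes that sum was 1.65 and 3.08 in WT and 1.80 and 1.81 in STAP-2-/- colons. Such a sum weighs the brightest probes most, here Ltb and Cxcl13, so it hides that 5 of the 7 were lowest on STAP-2-/- 2. Fcmr, the IgM Fc receptor of B cells, was -3.76 on WT 1, -1.58 on WT 2, -2.63 on STAP-2-/- 1 and -5.73 on STAP-2-/- 2. Cd22, an inhibitory receptor of B cells, went the other way, at -2.04 on WT 1, -2.46 on WT 2, -2.08 on STAP-2-/- 1 and -2.45 on STAP-2-/- 2, lowest on WT 2 (limma adjusted p between pools 0.136). Pax5, the B lineage factor, was highest on STAP-2-/- 1. Blk was well above background on no array, as was Coch of the follicular dendritic cell list. All 5 tested follicular dendritic cell genes were highest on WT 2, against 19.4% of all genes. Whether these genes mark follicular dendritic cells alone was not tested. Among them Cr2, the complement receptor of follicular dendritic cells and B cells, was -2.68 on WT 1, -1.55 on WT 2, -1.86 on STAP-2-/- 1 and -4.48 on STAP-2-/- 2. In whole colon fewer cells of a type and less RNA per cell cannot be told apart, and the part of B cell and follicle content in the results above was not tested.

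Ccr6 shared its order of arrays, WT 2, STAP-2-/- 1, WT 1 and STAP-2-/- 2 from high to low, with 6 of the 11 B cell genes, Fcmr and Ms4a1 among them, and with 4 of the 5 follicular dendritic cell genes (Cr2, Fcer2a, Mfge8 and Clu). Of all genes 1.4% had that order, and 0 of 11 T cell genes and 0 of 10 dendritic cell genes. Ccl19, Cxcl13, Ccl17 and Ccr7 had the order WT 2, WT 1, STAP-2-/- 1 and STAP-2-/- 2, found in 2.58% of genes and in 1 of the 11 B cell genes, Spib. That order places WT 1 before STAP-2-/- 1 by 0.16 or less, and for Ccl19 it is that of the kept probe. It depends on the scaling too. With quantile scaling or normexp background correction Cxcl13 took the order of Ccr6. With these or median scaling Ccl19 had STAP-2-/- 1 lowest. Another probe of Ccl19 had the order of Ccr6. These orders were counted after the values had been seen.

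T cell genes ran differently. Of 11 tested, 9 were highest on STAP-2-/- 2 (26.4% of genes were) and 0 on WT 2, the summed signal being 2.95 and 3.31 in WT and 3.38 and 5.38 in STAP-2-/- colons. By their means all 11 were higher in STAP-2-/- colons, as 7515 of 15559 genes were, and 0 passed in either comparison. Cd8a, the coreceptor of cytotoxic T cells, was -5.58 on WT 1, -5.02 on WT 2, -4.98 on STAP-2-/- 1 and -2.59 on STAP-2-/- 2, so the array lowest for Ccr7 was the highest for Cd8a. Dendritic cell genes were highest on WT 2 in 3 of 10 cases. By their means 8 of the 10 were higher in pool 2, 7 of them with no overlap (26.4% of genes), and 0 passed the test. Their summed signal went against this count, at 70.2 and 65.6 in WT and 72.9 and 68.0 in STAP-2-/- colons, pool 1 first. Most of that sum came from Siglech, a plasmacytoid dendritic cell gene picked here after its values were seen, which read 5.95 on WT 1 and 6.03 on STAP-2-/- 1 and was lower on both arrays of pool 2. Whether a probe this bright measures dendritic cell RNA was not tested, so the sum is no measure of these cells. Batf3, a factor of conventional dendritic cells, was -3.03 ± 0.038 in pool 1 and -2.36 ± 0.039 in pool 2 (SD, n = 2, 1 array per genotype), with a limma adjusted p of 0.0965. Xcr1 was well above background on no array.

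Vessel and follicle epithelium lists gave no call. Madcam1, the addressin of gut venules and follicle stroma, was -1.53 on WT 1, -0.40 on WT 2, -1.61 on STAP-2-/- 1 and -1.42 on STAP-2-/- 2. It was high on WT 2 alone, as Ccl19 was. Of 11 high endothelial and lymphatic vessel genes tested, 3 were highest on WT 2. Tnfaip2, of the follicle-associated epithelium list, was -1.30 on both arrays numbered 1, 0.00096 on WT 2 and -0.50 on STAP-2-/- 2 (limma adjusted p between pools 0.113). Of the 7 tested genes of that list, 2 were highest on WT 2. Of 6 smooth muscle genes, 3 were highest on WT 2 and 0 passed in either comparison. All 6 had a lower mean in STAP-2-/- colons, as 51.7% of genes tested did, with a median difference of -0.15.

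**Figure D4:**
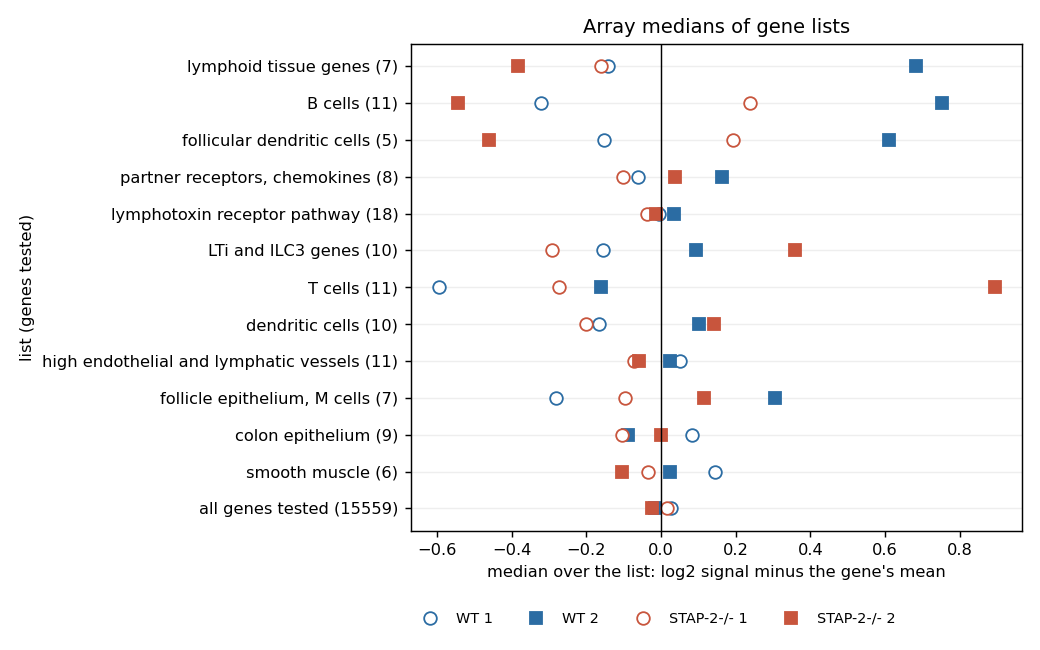
Median over each gene list (rows, with the number of genes tested) of the log2 signal on an array minus the gene's mean over the 4 arrays, with open circles for pool 1, filled squares for pool 2, blue for WT and red for STAP-2-/-. The lymphoid tissue genes, B cell and follicular dendritic cell lists have WT 2 farthest to the right (0.68, 0.75 and 0.61) and STAP-2-/- 2 farthest to the left (-0.38, -0.54 and -0.46), while T cells have STAP-2-/- 2 farthest to the right (0.89).

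By the Euclidean distance between 4-array profiles centred on their own mean, over 14463 genes well above background on all arrays, the genes nearest Cxcl13 were Gpr135 (0.043), Unc5c (0.056), the collagen gene Col1a2 (0.059) and Rasgrp3 (0.082). Nearest Ccr7 were Rnd1 (0.085), Il4i1 (0.14), Folr1 (0.19) and Tifa (0.20). Ccl17 was at place 10 and Cxcl13 at place 22 in nearness to Ccr7, with distances of 0.24 and 0.31. The distance describes these 4 arrays only. Ccl20 has no such list, being below background.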

How the data were processed

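The scanner output that the authors deposited gives, per the file headers, a processed signal intensity for each spot, background-subtracted and detrended within an array by Agilent Feature Extraction 10.7.1.1 (version per the submitters' processing notes), with median spot and background intensity and 0 or 1 flags (other columns). The authors' deposited value table is a ratio, the processed signal over 1 constant per array (within 1% for 100% of probes compared), and served as an alternative; the 75th percentile of each of its columns is 1. All 4 arrays were on 1 slide.

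Log2 processed signals were scaled to each array's 75th percentile over non-control spots, outlier-flagged spots were dropped and spots of a probe averaged. Of 39429 probes, 27427 were named by matching accessions without versions to RefSeq's GRCm38.p6 table; the arrays' own annotation is on another build, so gene coordinates are not used. A gene was tested where its probe exceeded background clearly in both pools of at least 1 genotype (15560 genes, 15559 with a genotype estimate). Groups were compared with limma 3.58.1 in R 4.3.3 (lmFit, eBayes, Benjamini-Hochberg over all genes, threshold 0.05), genotype without covariate and pool number likewise. The fit was tested on simulated data in which arrays varied independently, so without the part that arrays of equal number share here. The precision is limited by the number of arrays. Alternatives were other scalings, the value table, normexp (offset 50, on median intensity since the files hold no mean), other filters, flagged spots kept, probe means, a trended robust fit, the replicate block and leaving out each array. Members and lists were chosen with earlier results of these data known. Named genes are the 10, Stap2, up to 4 genes with the smallest p per list and comparison, the 4 genes nearest Cxcl13 and Ccr7, and others said to be chosen after their values were seen; Ltbr, Map3k14 and genes named for being below background are also of that kind. One gene of the B cell list is counted with its list and not reported by itself here. Tables were joined in Python 3.11.15 with pandas 2.3.3 and numpy 2.4.6, and plots drawn with matplotlib 3.10.9.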

Additional observations from a re-analysis of the deposited data

Results flagged for a closer look

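Within WT and within STAP-2-/- colons, pool 2 and pool 1 stood in opposite order for 5 of the 7 genes, with 1 pair of arrays per genotype, so the difference between genotypes was not tested. Ccl19 was among the 5 only by -0.028 in STAP-2-/- colons. That value turned positive with quantile scaling, median scaling or normexp background correction. The log2 difference of pool 2 from pool 1 was larger in WT than in STAP-2-/- colons by 2.41 for Ccr6 (1.25 against -1.16), by 1.49 for Ccl19 (1.46 against -0.028), by 1.22 for Ccl17 (0.72 against -0.50), by 1.05 for Ccr7 (0.83 against -0.22) and by 0.71 for Cxcl13 (0.46 against -0.25).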

How the results depend on the processing

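Of the settings tried with all 4 arrays, none turned the direction of any of the 7 genes in either comparison (154 values). The filters, flagged spots kept, the trended robust fit and the block left every difference of these genes unchanged. Direction could turn only under the scalings, the value table, normexp and, for Ccl19, probe means. None of the settings brought a member past the threshold. The limma adjusted p ran from 0.699 to 1 between genotypes and from 0.0870 to 0.977 between pools. Among all genes, normexp background correction called 1 gene between genotypes, Stap2 (adjusted p 0.00458). Leaving out 1 array gave 0 genes between genotypes and 0 to 1 between pools (Six2, without WT 1). Leaving out 1 array turned 10 values of the 7 genes and left 46 with their direction. Between genotypes Ccr6 became 0.15 without WT 2 and 0.10 without STAP-2-/- 2, and Ltb 0.61 without WT 2 and 0.24 without STAP-2-/- 1. Between pools, without WT 2, Ccl19 became -0.11, Cxcl13 -0.26, Ccl17 -0.52, Ccr7 -0.23 and Ccr6 -0.80, and without WT 1 Ccr6 became -0.32. Over the 4 arrays left out in turn, the genotype difference ran from -1.10 to 0.15 for Ccr6 and from -0.68 to 0.61 for Ltb, and the pool difference from -0.11 to 1.54 for Ccl19, from -0.26 to 0.47 for Cxcl13, from -0.52 to 0.74 for Ccl17, from -0.23 to 0.84 for Ccr7, from -0.80 to 0.89 for Ccr6 and from 0.33 to 0.90 for Lta. The replicate number used as a block called 0 genes, as did the fit without it. With the block 1041 genes had an unadjusted limma p under 0.05, against 326 without it. Arrays of equal number varied together, since the pool differences of the 2 pairs correlate by 0.596 across genes. The fit without the block leaves that shared part in its error. No label says what the number marks, and what these arrays share was not tested. The counts of 7 genes highest on WT 2 and 2 higher in pool 2 with no overlap were the same under the other scalings, filters and probe choices, which were applied to them after seeing the data. The filters left the values of the 7 genes as they were and probe means altered only Ccl19, so these settings say little about the counts. Signal over background limits Ccl20 and Ccl22, which give no comparison. Lta was near that limit too, at -5.92 on STAP-2-/- 1, where the lowest signal well above background was -6.38. Its genotype difference went from -0.50 to -0.20 with normexp.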

Other observations

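Some marker genes of lymphoid structures, picked after their values were seen, spanned wide ranges over the arrays. Glycam1, a mucin-like ligand made by high endothelial venules, was -1.55 on WT 2 and -5.17 on STAP-2-/- 1 and was not well above background on WT 1 or STAP-2-/- 2, so it was not tested. Gp2, the uptake receptor of M cells, was -4.72 on WT 1, -2.86 on WT 2, -2.08 on STAP-2-/- 1 and -5.90 on STAP-2-/- 2. Ms4a1, which encodes the B cell antigen CD20, was -3.10 on WT 1, -1.41 on WT 2, -2.01 on STAP-2-/- 1 and -4.58 on STAP-2-/- 2. For Gp2 and Ms4a1 the upper arrays were WT 2 and STAP-2-/- 1 and the lowest STAP-2-/- 2, as for Ccr6, but Gp2 was highest on STAP-2-/- 1. Tnfrsf13c had the array order of Ms4a1, at -4.95 on WT 1, -2.76 on WT 2, -4.02 on STAP-2-/- 1 and -5.59 on STAP-2-/- 2.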
